A study of Mus musculus with 18 samples.

Results

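The lacrimal gland (LG) of NOD.H-2b male mice was compared at 6 months (6M) and at 2 months (2M) of age, over the whole span that was sampled in this strain. The comparison is made of the 3 LGs of 6M and the 3 LGs of 2M, which are 6 of the 18 samples of the series, and every gene with enough counts was tested. Each sample was 1 LG of 1 mouse, so the replicates are separate animals. NOD.H-2b (labelled NOD.B10Sn-H2b/J) is a nonobese diabetic strain that carries the b haplotype of the major histocompatibility complex, does not become diabetic and serves as a model of Sjögren's syndrome. BALB/c (labelled BALB/cJ), the healthy control strain, gave 3 males at 2M and 3 at 6M, and 3 males of each strain were also sampled at 4 months (4M). The strains differ in much more than the disease, and no mouse received a treatment. RNA was counted by sequencing after depletion of ribosomal RNA, with totals from 56840654 to 62057758 counts per mouse at 2M and from 50470457 to 58993318 at 6M in NOD.H-2b. The question of the comparison is which genes the gland of the disease strain gained and lost as inflammation became chronic.

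Acinar cells of the LG fill granules with secreted proteins and release them when nerves signal, and ducts modify and carry the fluid to the eye. In Sjögren's syndrome B and T lymphocytes gather in foci around ducts and vessels, and such foci can take on features of a lymph node, with vessels through which naive lymphocytes enter, chemokines that sort B cells from T cells, and plasma cells that release antibody. The B cell receptor, the T cell receptor and the class II molecules that present peptides to T cells are the molecules by which such infiltrates are usually recognised. A sample of a whole gland mixes all of these cells, and fewer cells of a type cannot be told apart from less RNA per cell.

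Markers of the labelled tissue were present in all 6 mice. The acinar secretion list summed to between 28050 and 28440 CPM (a gene's counts relative to the normalised total of its library) at 2M and to between 14650 and 19490 CPM at 6M. Of the lists for tissue that might be dissected with the gland, skeletal muscle and adipocytes were low, with sums of 0.231 to 0.536 CPM and 2.76 to 6.67 CPM over these mice. Higher sums were seen for the nerve list, 26.9 to 30.6 CPM, and for the salivary gland list. The latter stood at 90.1, 95.9 and 94.3 CPM at 2M and 66.9, 79.2 and 80.6 CPM at 6M. The mice of 2M were not alike. NOD.H-2b 2M replicate 1 had the lowest sum of the B cell list, 9.37 CPM against 65.6 and 34.6 CPM in replicates 2 and 3, and the lowest sum of the T cell list, 18.5 CPM against 57.6 and 38.8 CPM. The distance between a pair of mice, a root mean square of log2 differences taken from the 500 genes that set that pair apart most, was 2.29 ± 0.37 within 2M and 1.84 ± 0.11 within 6M (SD, 3 pairs each) and 3.69 ± 0.68 between the ages (SD, 9 pairs, from 2.91 to 4.80). Levels per mouse are given below as CPM on 1 scale for all 18 mice, always in the order of replicates 1, 2 and 3, and fold changes come from the fit of the 6 mice. Beside the genes that a rule on size and certainty named, further genes of the lists are named as examples and were picked after their values were seen.

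Of 54232 genes, 18008 had enough counts in these mice, and 1965 rose (10.9%) while 279 fell (1.55%) from 2M to 6M. A gene is said to rise or fall where the false discovery rate (FDR, the p of edgeR's quasi-likelihood test after Benjamini-Hochberg adjustment over all genes tested) was under 0.05 and the fold change was at least 2. Called in either direction were 12.5% of the genes, and 87.6% of the called genes rose. On FDR alone the 2 directions were closer, with 3723 genes higher (20.7%) and 3488 lower (19.4%) at 6M, so the genes that were lower had mostly moved by less than 2-fold. These shares of all genes are the background for every count of list members below. The median log2 fold change was -0.01 over all genes, 1.85 over those that rose and -1.28 over those that fell. At least 8-fold changes were seen for 302 genes that rose and for 7 that fell. The calls were spread over the range of levels, with 699 rising and 133 falling among 4067 genes under an average log2 CPM of 0, and 31 rising and 13 falling among 1672 genes at 6 or more. The 2 ages did not overlap for 2227 of the 2244 called genes (99.2%), and for 54.5% of all genes tested. Without NOD.H-2b 2M replicate 1, 1775 genes rose and 197 fell. Against the stricter question of whether a change exceeded 2-fold (edgeR's glmTreat), 337 genes rose and 20 fell. By that test no member of the B cell, germinal centre, plasma cell, class II, interferon gamma or macrophage lists described below was called, nor any epithelial, acinar or secretoglobin gene, against 3 T cell genes, 7 T cell receptor segments, 1 constant and 37 variable antibody genes and 3 lymphoid chemokine and adhesion genes.

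**Figure D1:**
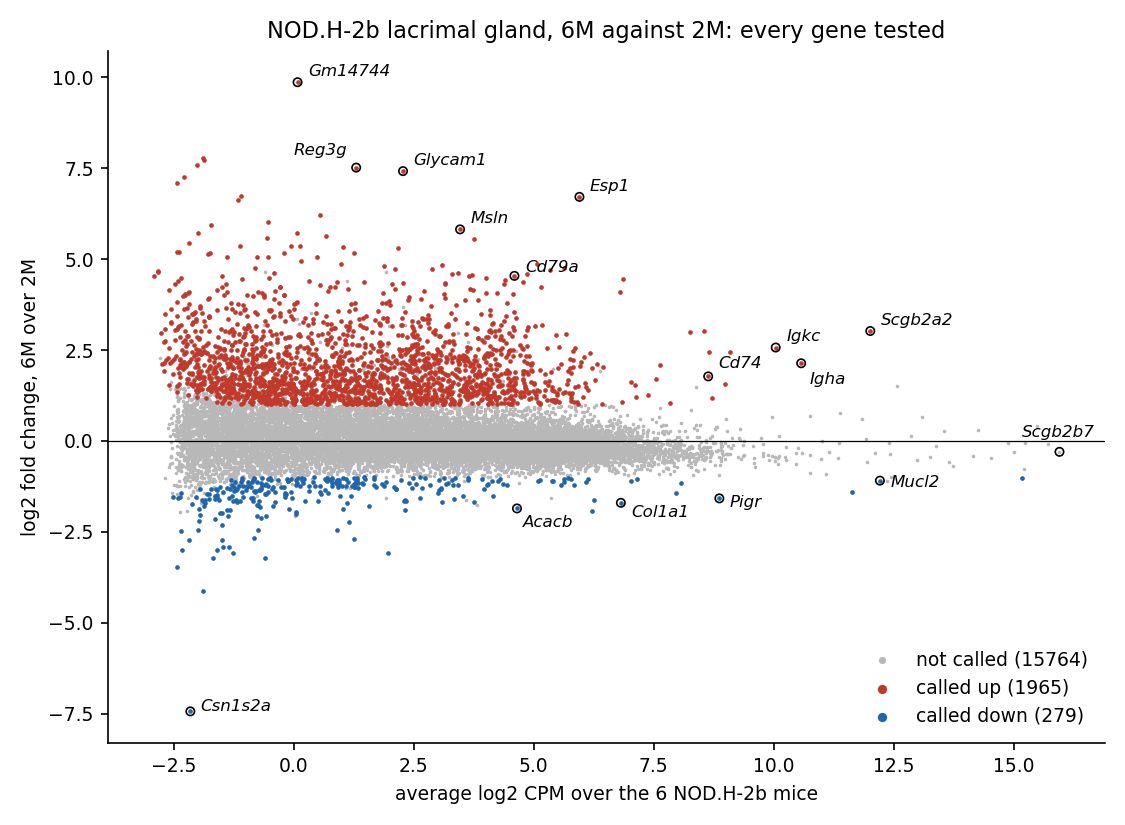
Log2 fold change from 2M to 6M (vertical axis) against the average log2 CPM over the 6 NOD.H-2b mice (horizontal axis) for each of the 18008 genes tested, with the 1965 genes that rose and the 279 that fell in colour and the others in grey. At least 8-fold changes were seen for 302 genes that rose and 7 that fell, and Gm14744, Glycam1, Reg3g and Esp1 lie high in the plot while Csn1s2a lies low.

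B cell genes made up the group with the highest median of all lists. All 18 markers of the B cell list rose, with log2 fold changes from 1.76 to 4.87 and a median of 4.40, against 10.9% of all genes that rose. Pax5 (chr4:44524757-44710487 of GRCm38, minus strand), the transcription factor that keeps B cells in their lineage, stood at 0.0165, 4.46 and 1.33 CPM at 2M and at 79.8, 41.9 and 52.3 CPM at 6M (log2 fold change 4.87 ± 1.12 SE, FDR = 0.0289). Replicate 1 of 2M was near 0, and even the highest mouse of 2M was far under the lowest mouse of 6M. Cd79a (chr7:24897381-24902197, plus strand), which carries the signal of the receptor into the cell, rose from 0.396, 3.2 and 1.68 CPM to 57.1, 30 and 38.3 CPM (4.54 ± 0.75, FDR = 0.0121). The mouse with the lowest value was again replicate 1 of 2M and the ages did not overlap. Bank1, an adaptor of B cell receptor signalling, went from 0.33, 5.22 and 2.34 CPM to 98, 50.1 and 61.1 CPM (4.70 ± 0.91, FDR = 0.0184), and Tnfrsf13c, the receptor for the survival factor BAFF, from 0.066, 0.816 and 0.633 CPM to 20.3, 9.98 and 13.8 CPM (4.83 ± 0.71, FDR = 0.00773). For both, replicate 1 of 2M was the lowest mouse and the ages did not overlap. Cacna1i, a calcium channel subunit that is not on the list, also rose, with 0.0165, 1.09 and 0.348 CPM at 2M and 34.2, 15.4 and 21.2 CPM at 6M (5.56 ± 0.92, FDR = 0.012).

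The sum of the list put the mice of 4M beside those of 6M. It was 603, 326 and 279 CPM at 4M and 828, 420 and 552 CPM at 6M, so that the lowest of these 6 mice stood over 4 times as high as the highest mouse of 2M. In BALB/c the sum was between 1.56 and 2.79 CPM at 2M and between 3.09 and 5.70 CPM at 6M. The calls depended on single mice, as 6 of the 18 genes rose without NOD.H-2b 2M replicate 3 and 7, 10 and 9 without replicates 1, 2 and 3 of 6M, whereas the median stayed between 3.85 and 5.39. Without replicate 1 of both ages 15 rose, with a median of 3.54. Pax5 lost the call without NOD.H-2b 2M replicate 3 and without each mouse of 6M (highest FDR 0.0928), and Bank1 without NOD.H-2b 2M replicate 3 and without 6M replicate 1 (highest FDR 0.0631). Pax5 and Bank1 overlap antisense genes, whose reads cannot be told apart where the counting ignores strand.

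The germinal centre list holds genes of B cells that mutate and select their receptors, and also the helper cytokine IL-21 and its receptor. Of its 10 members 8 were tested and 4 rose (median 0.92). Il21r, the receptor for the helper cytokine IL-21, rose from 1.73, 5.39 and 3.62 CPM to 20.4, 12.5 and 18.7 CPM (2.24 ± 0.46, FDR = 0.0177), and its ligand Il21 rose from 0, 0.169 and 0.0316 CPM to 2.04, 0.692 and 1.23 CPM (4.23 ± 0.82, FDR = 0.00782). Mef2b, a transcription factor of germinal centre B cells, and Mybl1, a relative of Myb, also rose (log2 fold changes 3.31 ± 0.66 and 1.02 ± 0.26). Bcl6, which directs the germinal centre programme but is also made by other cells, had a mean of 42.2 CPM at 2M and 51.7 CPM at 6M (FDR = 0.55). S1pr2, Gcsam and Fas were not called either (0.26 ± 0.15, 0.83 ± 0.39 and 0.67 ± 0.15, FDR = 0.204, 0.123 and 0.00795). Il21r lost its call without NOD.H-2b 2M replicate 3 and without replicates 1 and 3 of 6M (highest FDR 0.0673), and 2 of the 8 rose without NOD.H-2b 2M replicate 3 or 6M replicate 1.

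Antibody genes rose in both their constant and variable parts. Of 11 constant genes tested 9 rose (median log2 fold change 2.77), and they took 0.0922 ± 0.0394% of all counts at 2M and 0.579 ± 0.092% at 6M (SD, n = 3 each, two-sided exact permutation test on the log2 scale, p = 0.1, which is the smallest p that 3 mice against 3 can give). Igha, the heavy chain of the IgA that glands secrete into tears, stood at 267, 675 and 559 CPM at 2M and 2065, 2544 and 2075 CPM at 6M (2.14 ± 0.36, FDR = 0.00667). Ighm, the heavy chain of IgM, stood at 24.6, 78.9 and 76.8 CPM and 589.9, 486 and 387 CPM (3.00 ± 0.54, FDR = 0.0137). The lowest mouse of 6M was above the highest of 2M for both chains. Ighd, the chain that naive B cells carry beside IgM, rose from 0.396, 5.86 and 3.16 CPM to 119, 59.1 and 81.8 CPM (4.75 ± 0.91, FDR = 0.0175), and Ighg2b, an IgG chain, rose from 6.01, 17.5 and 9.09 CPM to 249.9, 146 and 171 CPM (4.10 ± 0.52, FDR = 0.00552). Ighg1 and Ighg3 were the constant genes that were not called (log2 fold changes 1.12 ± 0.98 and 1.57 ± 1.24, FDR = 0.424 and 0.374). Without NOD.H-2b 6M replicate 1, 3 of the 11 rose, and 6 did without 2M replicate 2 or without 6M replicate 2 or 3. Ighd lost its call without NOD.H-2b 2M replicate 3 and without 6M replicate 1 (highest FDR 0.0595).

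Of 178 variable genes tested 96 rose and 1 fell (median log2 fold change 2.55). The list holds 348 variable genes, and 81 had no count in these mice. Segments near 0 at 2M had enough counts to be tested only through 6M, which favours a rise among them. Each B cell clone uses 1 heavy and 1 light variable segment, so the level of a segment depends on which clones a gland holds, and reads of near-identical segments may have been split between them. Among the genes with the smallest p of the whole comparison were Igkv2-109, which rose from 1.54, 1.25 and 1.41 CPM to 14.5, 15.9 and 17.9 CPM (3.51 ± 0.13, FDR = 4.98e-06), and Igkv2-116, which rose from 0.611, 0.662 and 0.506 CPM to 7.03, 9.77 and 9.54 CPM (3.87 ± 0.19, FDR = 2.49e-05). In these the mice of an age lay close together. Other segments differed between mice of 6M, as Ighv1-36 with 2.02, 2.93 and 0.406 CPM, Ighv1-62-2 with 0.523, 0.195 and 1.66 CPM, Igkv4-63 with 3.07, 0.39 and 0.705 CPM and Igkv4-81 with 4.26, 3.42 and 11.5 CPM, all of which were at most 0.354 CPM at 2M and rose. Ighv3-5 was the segment that fell, from 0.726, 0.369 and 0.253 CPM to 0.0523, 0.231 and 0.0705 CPM (-1.97 ± 0.62, FDR = 0.031), and the call was lost without NOD.H-2b 2M replicate 1 or 6M replicate 1 or 3 (highest FDR 0.124). Igkv4-63 lost its call without any 1 mouse of 2M (highest FDR 0.063).

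The plasma cell list split. Of 12 members 6 rose, and 4 others had an FDR under 0.05 with lower levels at 6M. Jchain, which links IgA and IgM into the forms that epithelium transports, rose from 58.4, 158 and 117 CPM to 637, 662 and 530.4 CPM (2.44 ± 0.40, FDR = 0.00851), and Pou2af1, a coactivator of antibody genes, from 1.8, 4.6 and 4.46 CPM to 29.8, 20.4 and 22.6 CPM (2.72 ± 0.41, FDR = 0.00701). Mzb1, which helps antibody fold in the endoplasmic reticulum, rose from 0.776, 4.5 and 3.65 CPM to 15.8, 15.7 and 12.6 CPM (2.28 ± 0.63, FDR = 0.0451), a call that was lost in 5 of the 6 fits without 1 mouse and kept only without NOD.H-2b 2M replicate 1 (highest FDR 0.132). Irf4, Tnfrsf13b and Tnfrsf17, a transcription factor and receptors for the survival factors of plasma cells, were the other members that rose (2.29 ± 0.34, 2.15 ± 0.39 and 1.99 ± 0.40). Derl3, Eaf2, Xbp1 and Tent5c were lower by 0.49, 0.46, 0.32 and 0.24 on the log2 scale. Xbp1 and Derl3 serve protein secretion in many cells, including acinar cells.

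T cell genes rose as a group. Of 20 members 19 rose, with a median log2 fold change of 2.12, and of 53 T cell receptor segments tested 45 rose, with a median of 2.54. The annotation holds 264 such segments, and 73 had no count in these mice. Segments near 0 at 2M, as Traj25 with 1, 1 and 1 counts and 27, 16 and 13 at 6M, had enough counts only through 6M. For such segments a rise was largely set by the filter, so this count is a description. Cd2, an adhesion molecule of T cells, went from 1.16, 3.4 and 2.23 CPM to 14.9, 9.82 and 12.8 CPM (2.45 ± 0.41, FDR = 0.00821), and Cd3g, a signalling chain of the receptor, from 0.842, 3.23 and 1.6 CPM to 11, 7.04 and 9.08 CPM (2.23 ± 0.51, FDR = 0.022). Trbc2, a constant segment of the receptor's beta chain, went from 0.479, 2.88 and 1.63 CPM to 7.81, 6.67 and 9.08 CPM (2.21 ± 0.60, FDR = 0.0397). For these genes the ages did not overlap and replicate 1 of 2M was lowest. Cd4, the co-receptor of helper cells, rose by 2.09 ± 0.46 and Cd8b1, a chain of the co-receptor of killer cells, by 2.85 ± 0.25 (FDR = 0.0224 and 0.000387), with 0.198, 0.293 and 0.285 CPM of Cd8b1 at 2M and 1.79, 1.86 and 2.05 CPM at 6M. Cd6 was the member that was not called (1.95 ± 0.62, FDR = 0.0615). Without NOD.H-2b 2M replicate 3, 8 of the 20 rose, and without replicates 1 and 3 of 6M, 8 and 9 did. The segments rose in 28 cases without 6M replicate 3. Cd3g and Trbc2 lost the call without NOD.H-2b 2M replicate 3 and without replicates 1 and 3 of 6M (highest FDR 0.0868 and 0.12), and Trbc2 also without 6M replicate 2.

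Of the list of T cell subsets and checkpoints 10 of 16 rose (median 2.03), none fell, and the sum of the list went from 14, 26.4 and 17.7 CPM to 60, 43.8 and 55.3 CPM. Cd40lg, with which helper T cells license B cells, rose by 3.49 ± 0.37, Ctla4 and Lag3, which restrain T cells, by 2.81 ± 0.55 and 2.23 ± 0.57, and Ifng, the gene of interferon gamma, by 2.80 ± 0.77 (FDR = 0.000651, 0.00456, 0.0287 and 0.0184). Ifng stayed scarce, with means of 0.0469 CPM at 2M and 0.346 CPM at 6M. Foxp3, the factor of regulatory T cells, stood at 0.165, 2.05 and 1.2 CPM at 2M and 6.36, 4.63 and 6.37 CPM at 6M, and its ages did not overlap, but with 2.32 ± 0.76 it missed the threshold (FDR = 0.0661). Lag3 lost its call without NOD.H-2b 2M replicate 3 and without 6M replicates 1 and 3 (highest FDR 0.0956), and 6 of the 16 rose without NOD.H-2b 2M replicate 3. Cytotoxic and natural killer genes gave a lower median, 0.84, with 5 of 14 rising. Cst7, an inhibitor of cathepsins in killer cells, rose by 3.63 ± 0.33 and Nkg7, a granule protein, from 0.743, 1.92 and 0.996 CPM to 2.9, 2.38 and 2.96 CPM (1.15 ± 0.32, FDR = 0.0228), while the granule proteins Gzmb and Prf1 and the receptor Ncr1 had FDR values of 0.689, 0.22 and 0.116. Of the 14, 1 rose without NOD.H-2b 2M replicate 1 or 6M replicate 1 and 10 rose without 2M replicate 2, and Nkg7 lost its call without 4 of the mice, 2M replicates 1 and 3 and 6M replicates 1 and 3 (highest FDR 0.0903).

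Of the list of lymphoid chemokines and adhesion 10 of 15 members rose (median 2.30). The genes named here include receptors that lymphocytes carry, and Cxcr5 is on the B cell list and Ccr7 on the dendritic cell list. The part of the infiltrating cells in this rise was not tested. Glycam1 (chr15:103562759-103565081, minus strand), a mucin-like ligand that endothelium of high venules in lymph nodes shows to passing lymphocytes, gave no count in replicates 1 and 2 of 2M, 0.142 CPM in replicate 3, and 6.65, 4.96 and 5.04 CPM at 4M and 11, 6.14 and 8.73 CPM at 6M (7.42 ± 0.75, FDR = 0.00194). Chst4, which adds sulfate to such ligands, had 0, 0 and 1 counts at 2M and 77, 33 and 32 counts at 6M (at least 15.1-fold higher, from 3 counts per library, FDR = 0.000655). Both genes were at or near 0 in every mouse of 2M and above it in every older mouse. Vcam1, to which lymphocyte integrins bind, rose from 4.04, 7.08 and 7.34 CPM to 29.1, 19.7 and 25 CPM (1.98 ± 0.28, FDR = 0.00408). Cxcl13, the chemokine that draws B cells into follicles, stood at 2.38, 5.14 and 2.39 CPM at 2M and 28.2, 14.6 and 15.8 CPM at 6M (2.55 ± 0.46, FDR = 0.0126), and its receptor Cxcr5 rose by 4.30 ± 0.93 (FDR = 0.024). Ccr7, which guides T cells and dendritic cells to lymphoid tissue, rose from 1.95, 3.56 and 2.63 CPM to 16.2, 10.8 and 13.6 CPM (2.30 ± 0.25, FDR = 0.00112). S1pr1, the receptor with which lymphocytes leave lymphoid tissue and which vessels also make, rose from 2.64, 4 and 3.21 CPM to 21, 15.5 and 19 CPM (2.48 ± 0.18, FDR = 0.000301). Ltbr, through which stroma senses lymphotoxin, had an FDR of 0.00454 with a lower level, by 0.55 on the log2 scale, while its ligands Lta and Ltb rose (2.88 ± 0.74 and 2.94 ± 0.69). Without NOD.H-2b 6M replicate 1, 6 of the 15 were called.

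Of the 11 endothelial genes tested Pecam1, an adhesion molecule of endothelium and leukocytes, was the member that rose, from 12.6, 14.3 and 13.4 CPM to 42.6, 28.4 and 32.7 CPM (1.35 ± 0.15, FDR = 0.000898). The sum of the list was 148, 135 and 141 CPM at 2M and 167, 162 and 149 CPM at 6M, with a median log2 fold change of -0.03.

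Of 25 genes of the interferon gamma list, which holds Ifng, its receptor and kinases and genes it induces, 13 rose (median 1.17), and of 26 genes of the type I interferon list 1 rose (median 0.18). The difference between the lists was not tested. The lists are told apart by textbook use only, as both kinds of interferon induce many shared genes. Ciita, which switches on class II genes and answers to interferon gamma, rose from 9.11, 22.4 and 15.6 CPM to 94.3, 47.9 and 66.1 CPM (2.13 ± 0.45, FDR = 0.0215). In the same mice the B cell list summed to 9.37, 65.6 and 34.6 CPM and 828, 420 and 552 CPM. The part of B cells in the rise of Ciita was not tested. Gbp5, a GTPase that coats vacuoles with bacteria, rose from 3.75, 9.7 and 5.69 CPM to 20.1, 13.3 and 22 CPM (1.51 ± 0.41, FDR = 0.039), and Igtp, a GTPase of the same defence, from 6.96, 13.8 and 9.31 CPM to 29.7, 19.9 and 38.6 CPM (1.53 ± 0.36, FDR = 0.0264). In each of the 3 genes all mice of 6M were above those of 2M. Gbp7 passed with a smaller change (1.05 ± 0.28, FDR = 0.0334). The chemokines Cxcl9 and Cxcl10 missed the threshold (1.51 ± 0.74 and 0.87 ± 0.40, FDR = 0.18 and 0.14). On FDR alone 22 of the 25 were higher at 6M. The count of 13 fell to 3 without NOD.H-2b 2M replicate 3 or 6M replicate 3, to 4 without 6M replicate 1 and to 6 without replicate 1 of both ages, and it was 20 without 2M replicate 2. Ciita lost its call without NOD.H-2b 2M replicate 3 and without 6M replicates 1 and 3 (highest FDR 0.0684), and it overlaps Dexi on the other strand.

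Zbp1, a sensor of nucleic acid, was the member of the type I list that rose, from 6.21, 12.7 and 10.2 CPM to 28.2, 18 and 22.3 CPM (1.21 ± 0.31, FDR = 0.0306), and it lost the call without NOD.H-2b 2M replicates 1 and 3 and 6M replicates 1 and 3 (highest FDR 0.0918). Ifit1, which blocks translation of viral RNA, stood at 8.71, 11.5 and 8.57 CPM at 2M and 14.9, 11.3 and 10.5 CPM at 6M (0.34 ± 0.16, FDR = 0.139), and Isg15, a ubiquitin-like modifier, at 2.41, 3.46 and 2.82 CPM and 4.55, 3.09 and 3.7 CPM (0.37 ± 0.19, FDR = 0.16). For both the ages overlapped. The sum of the list was 433, 524 and 482 CPM at 2M and 582, 479 and 465 CPM at 6M.

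The promoters of 3 genes that rose (Gbp5, Gbp7 and Igtp) and of 2 that were not called (Ifit1 and Isg15) are shown because they hold the letters of the elements that interferons act through. They are the 250 bases before the annotated start in the RefSeq table for GRCm38.p6, 5′ to 3′ on the strand of the gene, at chr3:142496684-142496933 (plus), chr3:142530086-142530335 (plus), chr11:58199306-58199555 (plus), chr19:34640639-34640888 (plus) and chr4:156200819-156201068 (minus). Capitals mark matches, on either strand, to GAAA followed by any 2 bases and GAAA, the core of the interferon-stimulated response element (ISRE), and to TTC followed by any 3 bases and GAA, the gamma-activated site (GAS), whose letters are the same on both strands.
Gbp5: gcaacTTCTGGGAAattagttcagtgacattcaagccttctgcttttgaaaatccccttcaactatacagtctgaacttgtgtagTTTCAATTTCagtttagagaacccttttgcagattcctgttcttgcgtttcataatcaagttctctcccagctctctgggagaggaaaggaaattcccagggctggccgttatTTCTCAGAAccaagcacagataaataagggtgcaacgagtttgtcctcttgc
Gbp7: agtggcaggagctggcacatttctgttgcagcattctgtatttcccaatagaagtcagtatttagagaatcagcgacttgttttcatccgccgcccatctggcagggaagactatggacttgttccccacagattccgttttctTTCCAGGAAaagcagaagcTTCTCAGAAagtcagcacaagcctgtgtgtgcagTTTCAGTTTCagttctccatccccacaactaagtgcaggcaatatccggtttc
Igtp: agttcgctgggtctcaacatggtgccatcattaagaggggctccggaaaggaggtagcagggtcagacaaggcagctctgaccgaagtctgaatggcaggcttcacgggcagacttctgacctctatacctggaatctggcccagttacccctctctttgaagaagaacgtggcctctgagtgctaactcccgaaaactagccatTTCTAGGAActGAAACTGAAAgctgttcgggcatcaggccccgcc
Ifit1: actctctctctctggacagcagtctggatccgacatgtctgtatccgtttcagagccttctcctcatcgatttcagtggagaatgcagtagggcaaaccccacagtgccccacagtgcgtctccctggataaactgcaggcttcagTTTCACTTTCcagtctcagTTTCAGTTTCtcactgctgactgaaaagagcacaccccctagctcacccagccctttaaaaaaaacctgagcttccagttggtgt
Isg15: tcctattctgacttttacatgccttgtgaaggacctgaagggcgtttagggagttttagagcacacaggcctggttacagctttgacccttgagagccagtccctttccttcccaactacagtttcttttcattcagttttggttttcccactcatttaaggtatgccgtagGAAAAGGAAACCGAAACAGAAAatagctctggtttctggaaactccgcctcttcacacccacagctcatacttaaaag
Counted from the base nearest the start, the ISRE letters end 156 bases before it in Gbp5, 44 in Gbp7 and 25 in Igtp, each beside 1 or 2 GAS matches, and Igtp holds both elements next to each other. Ifit1 has an ISRE match at 95 and another at 76 bases, and Isg15 has 3 that overlap at 69, 63 and 57 bases, without a GAS match in either. Over the full windows of 300 bases, which go on for 50 bases past the start, ISRE letters stood in 3.44% of all 32851 promoters of the table, 3.19% of the 14791 of genes tested, 5.19% of the 1387 of genes that rose and 2.36% of the 212 of genes that fell. GAS letters stood in 8.3%, 7%, 8.94% and 9.43% of these, so more often in promoters of genes that fell than of genes that rose, and none of these differences was tested. Of the interferon gamma list 18 of 25 members matched a promoter, and 10 of these 18 held ISRE letters and 7 GAS letters. Of the type I list 19 of 26 matched, of which 11 held ISRE letters and 3 GAS letters. None of the 11 genes of the type I list with an ISRE match was called, against 5 of the 10 of the interferon gamma list. Of all 25 members of the latter list 13 rose. With GAS letters 5 of the 7 of the interferon gamma list were called and none of the 3 of the type I list. Irgm2, Bst2 and Oas1a held both elements and were not called, whereas Socs1 rose without a GAS match and Cxcr3 with neither element. The printed promoters are thus examples and do not stand for their lists. In 24 promoters of the table an ISRE and a GAS match overlap, and a match of letters is no evidence that a factor binds.

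Promoters are also given for the lymphoid gene and the secreted peptide that rose by over 6 on the log2 scale from low levels, Glycam1 at chr15:103565082-103565331 (minus) and Esp1 at chr17:40726870-40727119 (plus), with the single GAS match of each in capitals.
Glycam1: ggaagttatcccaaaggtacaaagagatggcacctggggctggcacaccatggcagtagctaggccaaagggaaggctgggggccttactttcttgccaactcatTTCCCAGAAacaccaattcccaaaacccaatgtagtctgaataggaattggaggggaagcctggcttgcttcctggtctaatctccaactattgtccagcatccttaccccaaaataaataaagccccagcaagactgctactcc
Esp1: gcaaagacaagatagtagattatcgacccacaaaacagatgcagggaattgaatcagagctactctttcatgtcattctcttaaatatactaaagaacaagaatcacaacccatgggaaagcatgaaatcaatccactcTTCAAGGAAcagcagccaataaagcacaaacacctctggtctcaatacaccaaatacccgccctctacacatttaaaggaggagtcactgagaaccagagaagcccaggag
The matches end 137 and 103 bases before the start, and neither window holds ISRE letters before the start.

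All 9 class II genes rose, with log2 fold changes from 1.47 to 4.04 (median 1.78). Cd74, the invariant chain that holds the peptide groove until loading, went from 106, 209 and 165 CPM to 710.3, 412 and 540.2 CPM (1.78 ± 0.32, FDR = 0.0102), and H2-Aa, an alpha chain that presents peptide, from 51, 109 and 76.4 CPM to 334, 192 and 248 CPM (1.69 ± 0.36, FDR = 0.0197). Every mouse of 6M was above every mouse of 2M. H2-Ob, part of a complex that B cells use to limit loading, rose most, from 0.264, 4.43 and 2.45 CPM to 53.5, 29.3 and 37.2 CPM (4.04 ± 0.89, FDR = 0.0261), and its partner H2-Oa by 3.38 ± 0.61. In BALB/c the median of the 7 class II genes tested was 0.10 and none was called. For 7 of the 9 the change with age was more positive in NOD.H-2b by FDR and at least 2-fold (3.77% of all genes), in a test that uses the same NOD.H-2b mice. Without NOD.H-2b 2M replicate 3, 2 of the 9 were called, and without 6M replicates 1 and 3, 4 and 5 were. H2-Ob lost its call without NOD.H-2b 2M replicate 3 and without each mouse of 6M (highest FDR 0.0883).

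**Figure D2:**
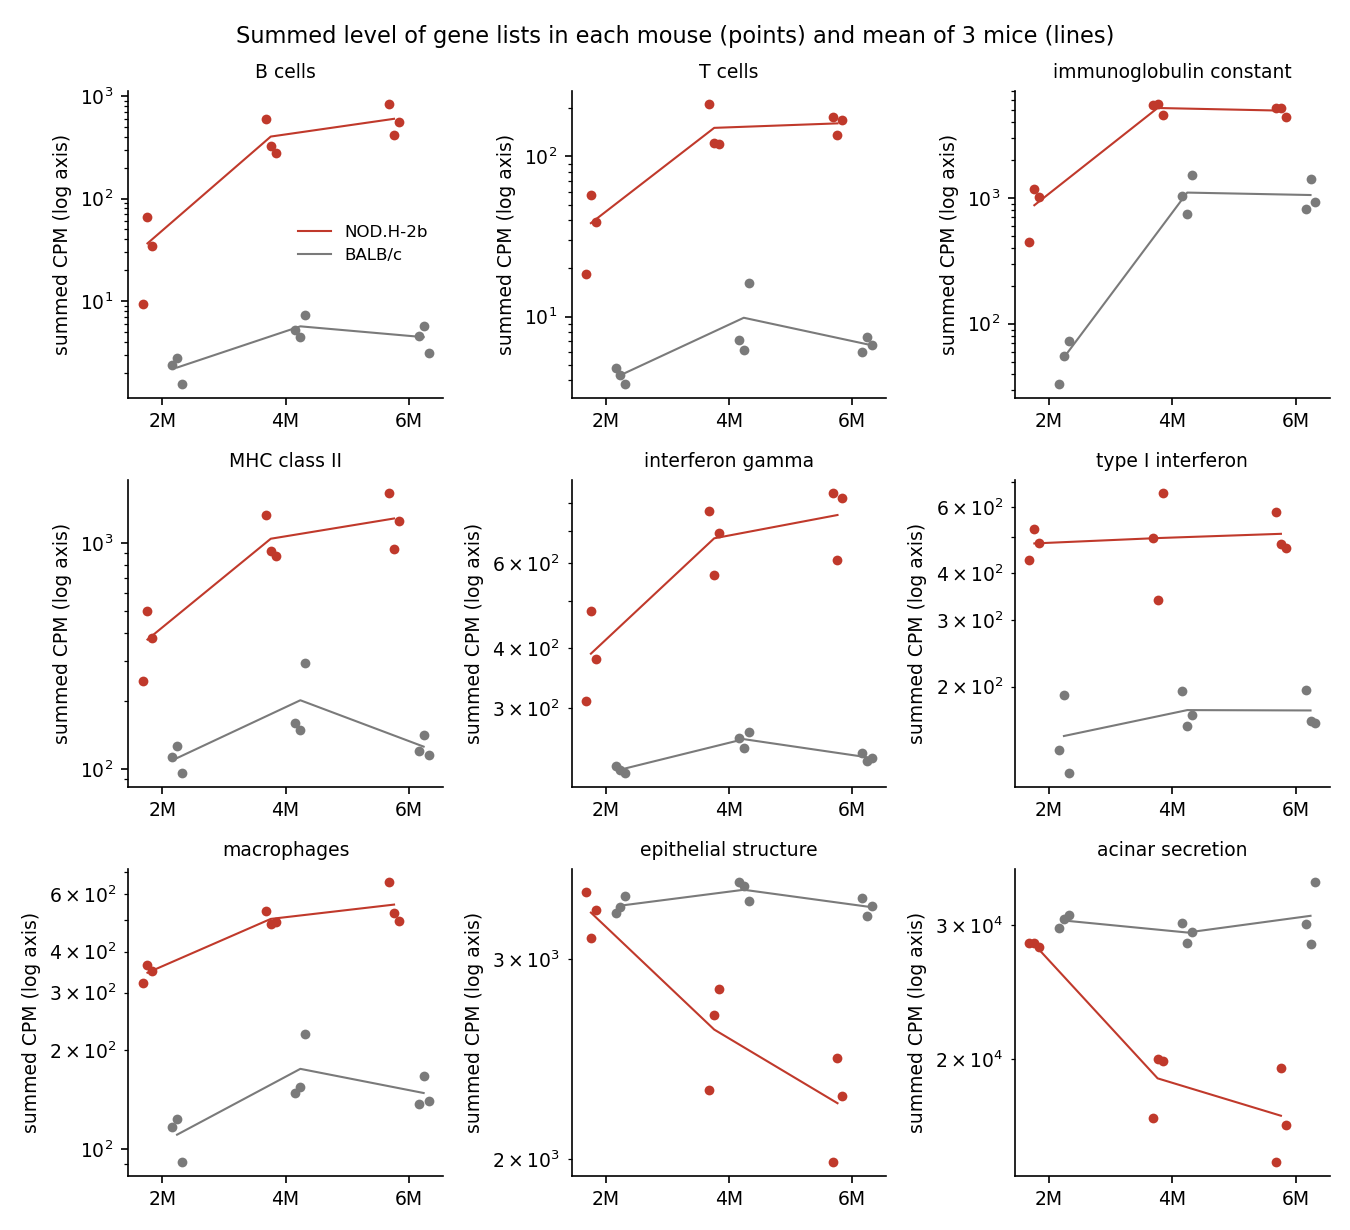
Summed CPM of 9 gene lists (vertical axes, logarithmic) at 2M, 4M and 6M (horizontal axes), with a point for each mouse and a line through the means of 3 mice, in NOD.H-2b and BALB/c. In NOD.H-2b the B cell, T cell, antibody and class II lists were higher in every mouse of 4M and 6M than at 2M, the epithelial and acinar lists were lower, and the type I interferon list overlapped between 2M and 6M.

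Of 19 macrophage genes 2 rose, which is near the 10.9% of all genes that rose, with a median log2 fold change of 0.49. On FDR alone 10 were higher at 6M, against 20.7% of all genes. Lyz2, lysozyme of myeloid cells, rose from 68.5, 82.6 and 75.7 CPM to 199, 166 and 161 CPM (1.20 ± 0.11, FDR = 0.000394), and Ctss, a protease that frees the class II groove, from 26.2, 42.3 and 36.6 CPM to 101, 70.1 and 76.2 CPM (1.22 ± 0.23, FDR = 0.0107). Both were higher in every mouse of 6M. C1qc, a subunit of the complement starter C1q, stood at 18.8, 23 and 22.2 CPM and 42.6, 28 and 29.5 CPM (0.63 ± 0.18, FDR = 0.0293), and Apoe, a lipid carrier, at 131, 112 and 126 CPM and 265, 231 and 202 CPM (0.90 ± 0.11, FDR = 0.000898). Ccl8, a chemokine for monocytes, had 0.80 ± 0.11, and none of these 3 reached a 2-fold change. Cd163, a scavenger receptor of resident macrophages, was lower at 6M, with 10.6, 8.85 and 9.55 CPM and 3.93, 6.88 and 5.22 CPM (-0.88 ± 0.19, FDR = 0.00831). The sum of the list was 321, 364 and 350 CPM at 2M and 650, 523 and 496 CPM at 6M.

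Of the 28 genes tested from a network around TYROBP, an adaptor for receptors of myeloid cells, 17 rose (median 1.07) and none fell. Tyrobp itself stood at 5.92, 8.22 and 7.24 CPM at 2M and 14.5, 10.7 and 10.8 CPM at 6M (0.74 ± 0.16, FDR = 0.00799), below the 2-fold limit. The members with larger changes included Cd37 (3.17 ± 0.54), Cd84 (2.26 ± 0.28), Fcgr2b (2.20 ± 0.19), Cd4 (2.09 ± 0.46) and the kinase Syk (2.01 ± 0.22), which lymphocytes also make, and Cd37 is on the B cell list and Cd4 on the T cell list as well. Itgax, an integrin of dendritic cells and macrophages, rose from 6.19, 8.45 and 6.17 CPM to 19.8, 13.9 and 15.9 CPM (1.24 ± 0.17, FDR = 0.00165). The receptors Fcgr1 and Itgam of the same list had FDR values of 0.25 and 0.402. With the lymphocyte lists moving from 9.37 to 65.6 CPM at 2M to 420 to 828 CPM at 6M for B cells and from 18.5 to 57.6 CPM to 137 to 177 CPM for T cells, their part in the rise of this network was not tested. The count was 10 without NOD.H-2b 6M replicate 1 and 11 without replicate 1 of both ages. Against 10.9% of all genes, 4 of 12 dendritic cell genes rose (median 0.91), and 1 of 15 complement genes did. That gene was C3, the centre of the cascade, with 108, 164 and 131 CPM and 322, 265 and 246 CPM (1.03 ± 0.17, FDR = 0.00351), and its fold change fell under 2-fold without NOD.H-2b 2M replicate 1 or 6M replicate 1.

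**Figure D3:**
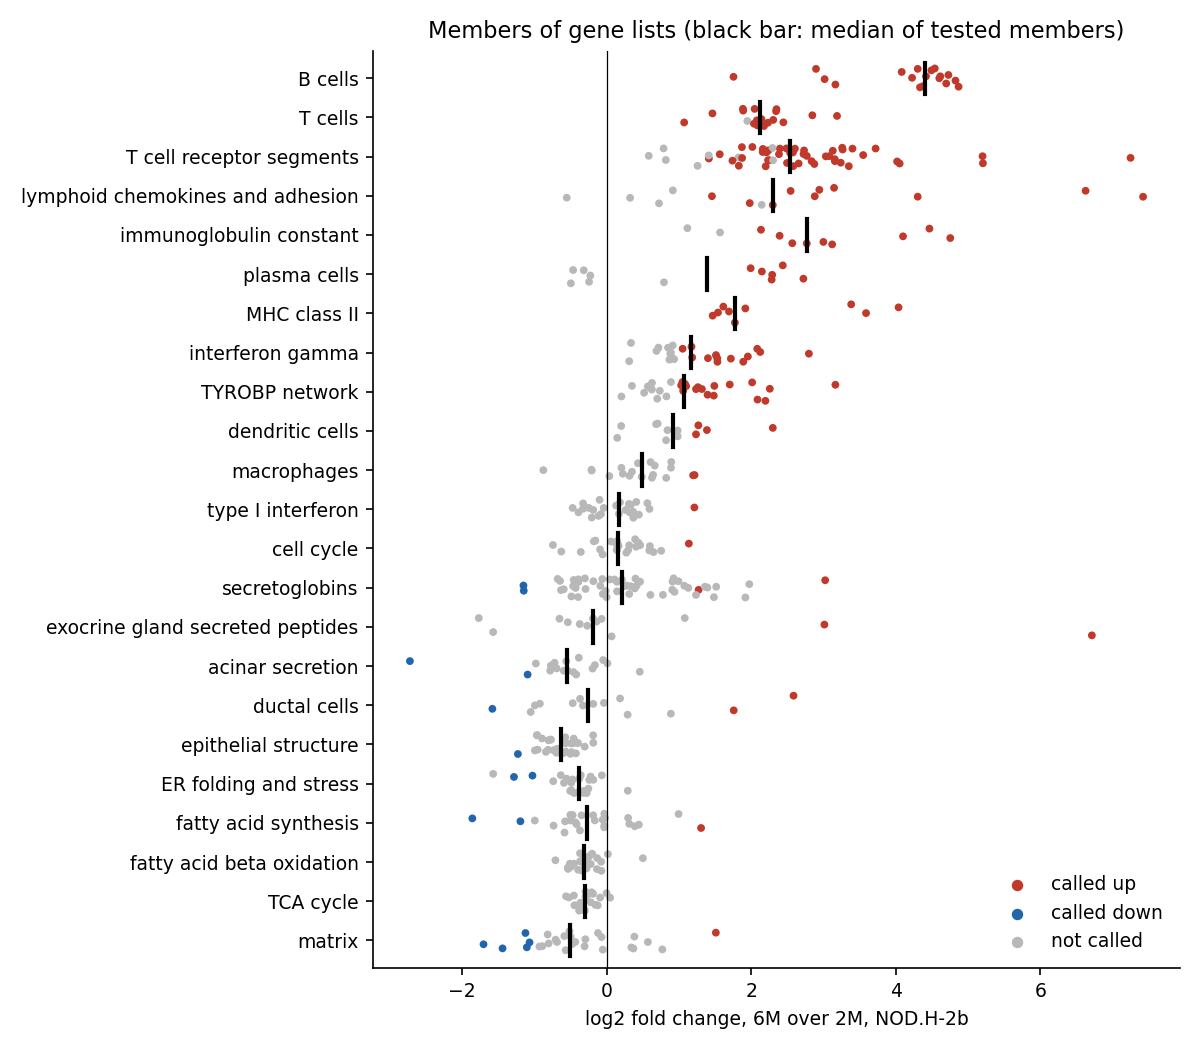
Log2 fold change from 2M to 6M in NOD.H-2b (horizontal axis) of the tested members of 23 gene lists (rows), with a point for each gene coloured by its call and a black bar at the median of the list. The bars of the B cell and T cell lists lie at 4.40 and 2.12 and that of the type I interferon list at 0.18, and the epithelial structure list has every point below 0.

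The genes of the glandular epithelium were lower at 6M by amounts that mostly did not reach 2-fold. Of 30 genes of epithelial structure all had a log2 fold change below 0 (from -1.23 to -0.18, median -0.62), 27 had an FDR under 0.05, against 19.4% of all genes with a lower level, and 1 fell by the full criteria. That gene was Prom1, a protein of apical membranes, with 3.66, 2.14 and 3.13 CPM at 2M and 1.38, 1.22 and 1.23 CPM at 6M (-1.23 ± 0.22, FDR = 0.00341). Cldn3, a claudin of tight junctions, stood at 64.8, 57.1 and 63.6 CPM and 30.3, 35.1 and 30.7 CPM (-0.97 ± 0.08, FDR = 0.00037), Krt8, a keratin of simple epithelia, at 305, 235 and 296 CPM and 137, 189.9 and 146 CPM (-0.84 ± 0.15, FDR = 0.00368), and Cdh1, the cadherin that joins epithelial cells, at 191, 159.7 and 169 CPM and 99.8, 119.6 and 108 CPM (-0.68 ± 0.10, FDR = 0.00133). In none of these did the ages overlap. Tfap2b, a transcription factor of glandular epithelium, was close to the limit with 18.8, 17.3 and 18.5 CPM and 8.97, 9.4 and 9.38 CPM (-0.99 ± 0.08, FDR = 0.000301). Epcam, an adhesion molecule of all epithelia, moved least among those named, with 116, 116 and 115 CPM and 88.2, 98.3 and 98.5 CPM (-0.30 ± 0.07, FDR = 0.00984). In BALB/c the median of the 30 genes was -0.03, and the change with age was more negative in NOD.H-2b for 24 of the 30 by FDR alone (10.9% of all genes) and for 4 by the full criteria (1.7%). CPM is a share of each library, so the levels of epithelial and immune genes are tied to each other. Over the same mice the antibody constant genes went from 445, 1166 and 1005 CPM to 5196, 5184 and 4368 CPM and the class II genes from 245, 498 and 379 CPM to 1655, 944 and 1250 CPM, and their part in the lower epithelial levels was not tested.

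Secretory genes of acinar cells were lower in the same range. Of 18 tested 2 fell, against 1.55% of all genes, and the median was -0.55. On FDR alone 13 were lower, against 19.4% of all genes. Mucl2 (chr15:103895855-103899312, minus strand), a mucin-like protein of the gland, fell from 5640, 6746 and 4866 CPM to 2380, 3116 and 2680 CPM (-1.09 ± 0.16, FDR = 0.00171), and its scarce relative Mucl1 fell from 0.363, 0.493 and 0.633 CPM to 0.0523, 0.0355 and 0.141 CPM (-2.72 ± 0.52, FDR = 0.0043). Every mouse of 6M was below every mouse of 2M. Lpo, an antimicrobial peroxidase of tears, stood at 6315, 6253 and 7284 CPM and 2562, 4193 and 3432 CPM (-0.98 ± 0.19, FDR = 0.00428), and Pip, a secreted binding protein, at 14390, 13410 and 13660 CPM and 8410, 10650 and 8724 CPM (-0.59 ± 0.15, FDR = 0.0136). Bhlha15, which gives acinar cells their secretory form, and the water channel Aqp5 had -0.72 ± 0.15 and -0.56 ± 0.10. Car6, a secreted carbonic anhydrase, had -0.78 ± 0.13 (FDR = 0.00264), and none of these reached a 2-fold change. Slc12a2 and Ano1, which drive chloride through acinar cells, had FDR values of 0.927 and 0.151. The sum of the list was 28440, 28400 and 28050 CPM at 2M, 16730, 20000 and 19850 CPM at 4M and 14650, 19490 and 16380 CPM at 6M. The fold change of Mucl2 was under 2-fold without NOD.H-2b 2M replicate 2.

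Ductal genes went in both directions. Pigr (chr1:130826684-130852249, plus strand), the receptor that carries IgA and IgM across the epithelium into the fluid, fell from 766, 468 and 639 CPM at 2M to 244, 272 and 379.5 CPM at 4M and 184, 249.6 and 199 CPM at 6M (-1.58 ± 0.19, FDR = 0.0013), in the same mice in which Igha and Jchain rose. In BALB/c Pigr stood at 138, 112 and 160.1 CPM at 2M and 175, 349.9 and 320 CPM at 6M (log2 fold change 1.05, FDR = 0.193), and the difference between the strains in the change with age was -2.64 on the log2 scale (FDR = 0.00396). Slpi, an inhibitor of neutrophil proteases, rose from 1.75, 4.34 and 3.23 CPM to 17.7, 22.2 and 16.9 CPM (2.59 ± 0.34, FDR = 0.00396), and Cftr, the chloride channel of ducts, from a mean of 0.237 CPM to 0.804 CPM (1.76 ± 0.43, FDR = 0.0113). Ltf, the iron-binding lactoferrin of tears, stood at 815, 714 and 877 CPM and 609, 545 and 606 CPM (-0.47 ± 0.11, FDR = 0.0104). Gsn, an actin-severing protein that the study uses as a marker of macrophages rather than ducts, stood at 183, 161 and 166 CPM and 144, 127 and 116 CPM (-0.41 ± 0.10, FDR = 0.00967). Dmbt1, a mucosal defence protein, had 255, 223 and 213 CPM and 281, 177 and 224 CPM, its ages overlapped, and its log2 fold change was -0.04 ± 0.16 (FDR = 0.869). The 8 genes of myoepithelial and smooth muscle cells gave no call and a median of -0.13, but Cald1, an actin-binding protein of contractile and other cells, fell from 103, 93 and 118 CPM to 27, 34 and 22.6 CPM (-1.92 ± 0.17, FDR = 0.000726). Cald1 fell in BALB/c too, from 62, 64.3 and 60.5 CPM to 25.8, 26.5 and 29.8 CPM (-1.18, FDR = 1.52e-06). The difference between the strains in its change was -0.75 (FDR = 0.0165), which is under 2-fold. For Cald1 and Pigr no mouse of 6M reached the level of a mouse of 2M.

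The secreted protein families did not move together. Of 53 secretoglobins tested, small proteins that fill mouse tears, 2 rose and 2 fell with a median of 0.21. The family took 31.1 ± 0.707% of all counts at 2M and 33.9 ± 1.95% at 6M (SD, n = 3 each, two-sided exact permutation test, p = 0.2). This share is of raw counts, before the normalisation that CPM includes. In CPM the family summed to 285500, 304200 and 290900 at 2M and 244500, 313400 and 315500 at 6M, with ages that overlapped. Scgb2a2 (chr19:9847562-9852808, plus strand) rose from 764, 1243 and 416 CPM at 2M to 10850, 8002 and 6007 CPM at 4M and 3909, 6579 and 9453 CPM at 6M (3.02 ± 0.54, FDR = 0.0105), with no overlap of 2M and 6M. It rose in BALB/c as well, from 9522, 7081 and 5599 CPM to 33960, 40170 and 42020 CPM (2.40, FDR = 0.0107), and the difference between the strains in this change was 0.62 (FDR = 0.509). Scgb2b28-ps, annotated as a pseudogene, fell from 339.6, 259 and 387 CPM to 102, 214 and 134 CPM (-1.15 ± 0.32, FDR = 0.0374), and its call was lost without NOD.H-2b 2M replicates 1 and 3 and 6M replicates 1 and 3 (highest FDR 0.104). Scgb2b7, the gene with the most counts of the gland, stood at 60430, 64390 and 62570 CPM and 44310, 54700 and 54930 CPM (-0.30 ± 0.17, FDR = 0.194), and Scgb2b17 was at 14, 7.67 and 6.64 CPM and 10.9, 33.1 and 18.6 CPM with ages that overlapped (1.13 ± 0.53, FDR = 0.165). Many members are close copies of each other, so the share of reads each received is uncertain. The family's calls depended on single mice, with 6 rising and 0 falling without NOD.H-2b 6M replicate 1 and 11 rising and 0 falling without replicate 1 of both ages.

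Of 13 exocrine gland secreted peptides, which act as pheromones in mouse tears, 2 rose and none fell. Esp1 (chr17:40727120-40731782, plus strand), a pheromone of males, stood at 1.34, 1.14 and 0.648 CPM at 2M, 155, 47.7 and 71.1 CPM at 4M and 45.9, 110.4 and 176 CPM at 6M (6.71 ± 0.74, FDR = 0.00429). It was higher in BALB/c at both ages, with 99.1, 149 and 213 CPM at 2M and 890.4, 949 and 454 CPM at 6M (2.32, FDR = 0.0813), and the change on the log2 scale was higher in NOD.H-2b by 4.39 (FDR = 0.0109). Esp31 rose from 52.3, 101 and 67.9 CPM to 231, 482 and 1100 CPM (3.01 ± 0.71, FDR = 0.0298). In both genes the mice of 6M differed several-fold among themselves, yet all were above 2M. The 9 lipocalins and odorant binding proteins gave no call (median -0.33), and Mup4, the one with the most counts, stood at 43290, 43470 and 41750 CPM and 21520, 31280 and 22810 CPM (-0.78 ± 0.19, FDR = 0.0111).

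Genes of metabolism were mostly lower, with few calls. Of 26 genes of fatty acid synthesis 2 fell and 1 rose (median -0.27). Acacb (chr5:114146535-114250761, plus strand), the acetyl-CoA carboxylase at the mitochondrial surface, whose product malonyl-CoA limits entry of fatty acids into mitochondria, fell from 39.2, 28.3 and 37.7 CPM to 8.86, 9.58 and 10.9 CPM (-1.86 ± 0.13, FDR = 0.000287). It stood at 56.1, 50.7 and 51.5 CPM and 61.7, 54.3 and 68.9 CPM in BALB/c (0.23, FDR = 0.138), so the change differed between the strains by -2.10 (FDR = 0.000176). The 3 mice of 6M were close to each other and far under those of 2M. Fads2, a desaturase of long unsaturated fatty acids, rose from 1.19, 1.36 and 1.11 CPM to 3.2, 2.66 and 3.28 CPM (1.31 ± 0.18, FDR = 0.00121), and Fasn, the fatty acid synthase, stood at 342, 239 and 285 CPM and 168, 240 and 209.7 CPM with ages that overlapped (-0.50 ± 0.16, FDR = 0.0379). Of 23 genes of cholesterol synthesis Pmvk, phosphomevalonate kinase, fell from 24.3, 19 and 26.9 CPM to 10.7, 10.8 and 11.3 CPM (-1.11 ± 0.12, FDR = 0.000681), and Stard4, a carrier of sterol between membranes, rose from 1.32, 1.56 and 1.66 CPM to 4.68, 2.89 and 3.74 CPM (1.30 ± 0.21, FDR = 0.00217). Without NOD.H-2b 2M replicate 3 Pmvk was under a 2-fold change.

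No gene of fatty acid oxidation, of the TCA cycle or of the nuclear part of the respiratory chain was called, with medians of -0.31 over 26, -0.30 over 24 and -0.25 over 73 genes. On FDR alone 16, 19 and 36 of these were lower at 6M, against 19.4% of all genes, and the sum of the TCA list was 1328, 1253 and 1341 CPM at 2M and 980, 1113 and 1096 CPM at 6M. Of 35 genes of amino acid and one-carbon metabolism 4 rose and 2 fell. Arg2, the arginase of mitochondria, fell from 18.9, 15.3 and 20.6 CPM to 5.96, 7.08 and 4.14 CPM (-1.69 ± 0.21, FDR = 0.00159), and Asns, asparagine synthetase, from 63.6, 62.1 and 63.3 CPM to 24, 37.2 and 32.8 CPM (-1.03 ± 0.15, FDR = 0.00229). Ddc, which makes dopamine and serotonin by decarboxylation, rose from 1.82, 1.23 and 1.3 CPM to 3.84, 15.4 and 8.5 CPM (2.65 ± 0.58, FDR = 0.0207), and Ass1, which makes the precursor of arginine, from 2.84, 5.22 and 3.61 CPM to 10.7, 9.13 and 9.66 CPM (1.32 ± 0.21, FDR = 0.00274). Ddc lost its call without any 1 mouse of 2M and without 6M replicate 3 (highest FDR 0.0786), and it overlaps an antisense gene.

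Of 25 genes of protein folding and stress in the endoplasmic reticulum, on which secretory cells depend, 16 were lower by FDR alone (median -0.39), against 19.4% of all genes. By the full criteria 2 fell, against 1.55%. These were Asns and Trib3, a pseudokinase of the stress response, from 7.79, 5.99 and 7.05 CPM to 2.85, 3.58 and 2.22 CPM (-1.28 ± 0.18, FDR = 0.00145). Hspa5, the chaperone BiP, stood at 1127, 1009 and 1232 CPM and 718, 909 and 833 CPM (-0.47 ± 0.13, FDR = 0.0178), with no overlap. In BALB/c the median of the list was 0.06.

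Of 28 genes of the extracellular matrix 5 fell, 4 of them fibrillar collagens, 1 rose and 17 were lower by FDR alone (median -0.51). Col1a1 (chr11:94936224-94953042, plus strand), a chain of collagen I, went from 159, 143 and 159 CPM at 2M to 51, 48.5 and 40 CPM at 4M and 50.8, 52.4 and 39.8 CPM at 6M (-1.70 ± 0.11, FDR = 0.000185), and Col3a1, the chain of collagen III, from 354, 306 and 319 CPM to 123, 134 and 108 CPM (-1.44 ± 0.10, FDR = 0.000214). The mice of an age lay close together, and the mice of 4M lay among those of 6M for Col1a1. Sparc, Col1a2 and Col5a1 also fell (-1.12 ± 0.09, -1.10 ± 0.09 and -1.07 ± 0.13). Col1a1 fell in BALB/c too, from 122, 113 and 88 CPM to 41.4, 54 and 47.4 CPM (-1.17, FDR = 0.0164), and the difference between the strains did not pass the threshold (-0.54, FDR = 0.0806). Tgfb1, a cytokine that drives collagen synthesis in fibroblasts and restrains lymphocytes, rose from 7.97, 10.2 and 9.22 CPM to 31.4, 22.7 and 24.8 CPM (1.51 ± 0.14, FDR = 0.000602), while it stood at 5.35, 5.36 and 5.56 CPM and 5.17, 6.18 and 4.86 CPM in BALB/c.

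Genes near silence at one age were counted apart. A gene was taken as gained where it rose and had at most 3 counts in every mouse of 2M. It was taken as lost where it fell and had at most 3 counts in every mouse of 6M. The rule set no floor for the other age, at which all genes found had more than 3 counts in every mouse. Folds against such a group are given as lower bounds, from the mean CPM of the high group over 3 counts per library, which cover counting error only. There were 68 gained genes, of which 17 were antibody or T cell receptor segments, 27 other protein coding genes and 24 of other classes, and 49 had passed 3 counts in every mouse of 4M. In 46 of the 68 no BALB/c mouse had more than 3 counts. Reg3g (chr6:78466269-78468872, minus strand), an antibacterial lectin of mucosal epithelium, had 0, 2 and 2 counts at 2M, 86, 40 and 34 at 4M and 693, 91 and 118 at 6M, at least 89.1-fold higher at 6M, and 1 mouse of 6M stood far above the other 2. Gm14744 had 0, 0 and 0 counts at 2M and 89, 94 and 158 at 6M (at least 39.2-fold), the noncoding 2900052N01Rik had 0, 3 and 0 and 96, 62 and 65 (at least 24.5-fold), and the tetraspanin Tspan10 had 1, 2 and 2 and 96, 32 and 60 (at least 20.1-fold). In BALB/c Gm14744 had no count at 2M and 102, 19 and 18 counts at 6M, whereas 2900052N01Rik and Reg3g had no count in any BALB/c mouse. Reg3g lost its call without NOD.H-2b 2M replicate 3 (FDR = 0.0511). Other gained genes, named after their values were seen, were Chst4 (at least 15.1-fold), Cdh17, a cadherin of intestinal epithelium (15.2-fold), Muc3a, a membrane mucin (12-fold), and Il12a, a subunit of interleukins (5.34-fold). The number of gained genes depended on the floor and the fit, as without single mice it was 75 to 241, with a floor of 10 counts 313 and with at least 10 counts in every sample 0 by construction.

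The lost genes were 4. Dcx, a microtubule protein of young neurons, had 40, 18 and 17 counts at 2M and 2, 1 and 1 at 6M (at least 8.3-fold lower), Csn1s2a, a milk casein, 32, 17 and 15 and 0, 0 and 0 (at least 7.07-fold lower), the noncoding 5930438M14Rik 25, 12 and 12 and 3, 2 and 1 (5.42-fold) and Gm37819 14, 17 and 16 and 2, 2 and 0 (5.13-fold). Csn1s2a had no count in any mouse of 4M. Dcx was also lower at 6M in BALB/c (-2.51, FDR = 0.0446).

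Other genes singled out by the size or the certainty of their change belonged to none of these groups. Msln, a surface protein of mesothelium and some epithelia, rose from 0.38, 0.2 and 0.443 CPM at 2M to 13.8, 8.81 and 7.37 CPM at 4M and 25.9, 16.1 and 16.4 CPM at 6M (5.82 ± 0.34, FDR = 0.000394). Snord17, a small nucleolar RNA that lies within a transcript of Snx5 on the same strand, rose from 5.45, 5.54 and 5.05 CPM to 22.1, 18.7 and 20.7 CPM (1.93 ± 0.09, FDR = 2.49e-05). The receptor gene Gprc5b rose from 5.74, 5.36 and 6.71 CPM to 16.6, 14.3 and 16.6 CPM (1.40 ± 0.11, FDR = 0.00033). Ssh2, a phosphatase of cofilin, rose from 22.9, 29 and 24 CPM to 69.5, 55.6 and 70 CPM (1.35 ± 0.12, FDR = 0.000478). All 4 separated the ages without overlap. Among genes that fell, Pllp, a membrane protein first described in myelin, went from 14.9, 15.6 and 14.8 CPM to 5.3, 5.46 and 5.2 CPM (-1.52 ± 0.09, FDR = 6.15e-05) and Mfsd4a, a putative sugar transporter, from 23.9, 20.5 and 25.5 CPM to 7.72, 8.78 and 8.15 CPM (-1.52 ± 0.10, FDR = 0.000214). Sval3, a relative of Pip, went from 112, 112 and 85.3 CPM to 24.8, 41.3 and 36.5 CPM (-1.61 ± 0.21, FDR = 0.00337), Fam171a2 from 10.5, 9.82 and 14.4 CPM to 3.33, 4.81 and 2.87 CPM (-1.67 ± 0.23, FDR = 0.00216) and Ggh, which trims folate chains, from 19.6, 20.6 and 20.4 CPM to 9.87, 8.87 and 7.83 CPM (-1.20 ± 0.10, FDR = 0.000351). In each of these 5 the mice of 6M were all lower than those of 2M.

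The mice of 4M lay nearer to 6M than to 2M for the median called gene. On the log2 scale 1774 of the 1965 genes that rose had a mean at 4M between those of 2M and 6M, 182 were past 6M and 9 were not past 2M, and the median gene had covered 79.4% of its change by 4M (quartiles 67.2% and 88.4%). For the 279 genes that fell the numbers were 224, 49 and 6, with a median of 63.1% (quartiles 43.4% and 89.1%). These shares use the same 2M and 6M mice that chose the genes and are given as a description.

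In BALB/c, whose 6 mice share none with this comparison, 260 of 16579 genes rose (1.57%) and 19 fell (0.115%) over the same months. On FDR alone 577 genes were higher (3.48%) and 353 lower (2.13%) there. Of the genes that rose in NOD.H-2b 1163 were tested in BALB/c, where 128 rose, and their median log2 fold change there was 0.28 against 1.57 in NOD.H-2b. Of the genes that fell 247 were tested, of which 6 fell and 1 rose, with medians of -0.12 and -1.26. A test of the difference itself, on the 12 mice of both strains, gave 702 genes with a more positive (3.77%) and 316 with a more negative (1.7%) change in NOD.H-2b, of 18623 tested (5.47% in either direction). This test uses the same NOD.H-2b mice, and it gives no usable value where BALB/c has no count. Among the lymphocyte lists antibody genes rose in BALB/c as well, with 6 of 10 constant genes tested (median 3.59) and 76 of 126 variable genes (median 4.72) called there, from far lower levels. So did 5 of 12 plasma cell genes (median 1.37, against 1.39 in NOD.H-2b) and, of the B cell list, Cd79a, from 0, 0.0357 and 0.0175 CPM to 0.472, 0.709 and 0.504 CPM (4.80, FDR = 0.00156), with a difference between the strains of -0.24 (FDR = 0.947). Igha rose in BALB/c from 20.1, 31.5 and 47.5 CPM to 518, 859 and 573 CPM (4.31, FDR = 0.0203), and its change was lower in NOD.H-2b by 2.18 (FDR = 0.0317). Of 195 variable genes in this test 13 had a lower and 1 a higher change in NOD.H-2b. Of the lists that led the comparison in NOD.H-2b, this test called 1 of the 18 B cell genes, none of the 20 T cell genes or the 53 T cell receptor segments, 2 of the 15 lymphoid chemokine and adhesion genes, 4 of the 25 interferon gamma genes and 7 of the 9 class II genes, all with a higher change in NOD.H-2b. In BALB/c alone 6 of the 18 B cell genes, 5 of the 20 T cell genes and 0 of the 53 segments had enough counts to be tested. Jchain rose in BALB/c from 4.51, 9.86 and 12.3 CPM to 147, 272 and 153 CPM (4.43, FDR = 0.0264), and its change did not differ between the strains by the threshold (-2.0, FDR = 0.0637). Ggt1, which starts the breakdown of glutathione, shared the lowest FDR of this test among the genes named here with Tfap2b. It rose in BALB/c from 10.7, 10.7 and 12 CPM to 32.6, 33 and 37.9 CPM (1.64, FDR = 1.01e-06) and stood at 4.59, 4.63 and 4.54 CPM and 3.23, 3.32 and 4.36 CPM in NOD.H-2b (-0.36 ± 0.15, FDR = 0.0786), a difference of -2.0 (FDR = 1.89e-05).

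**Figure D4:**
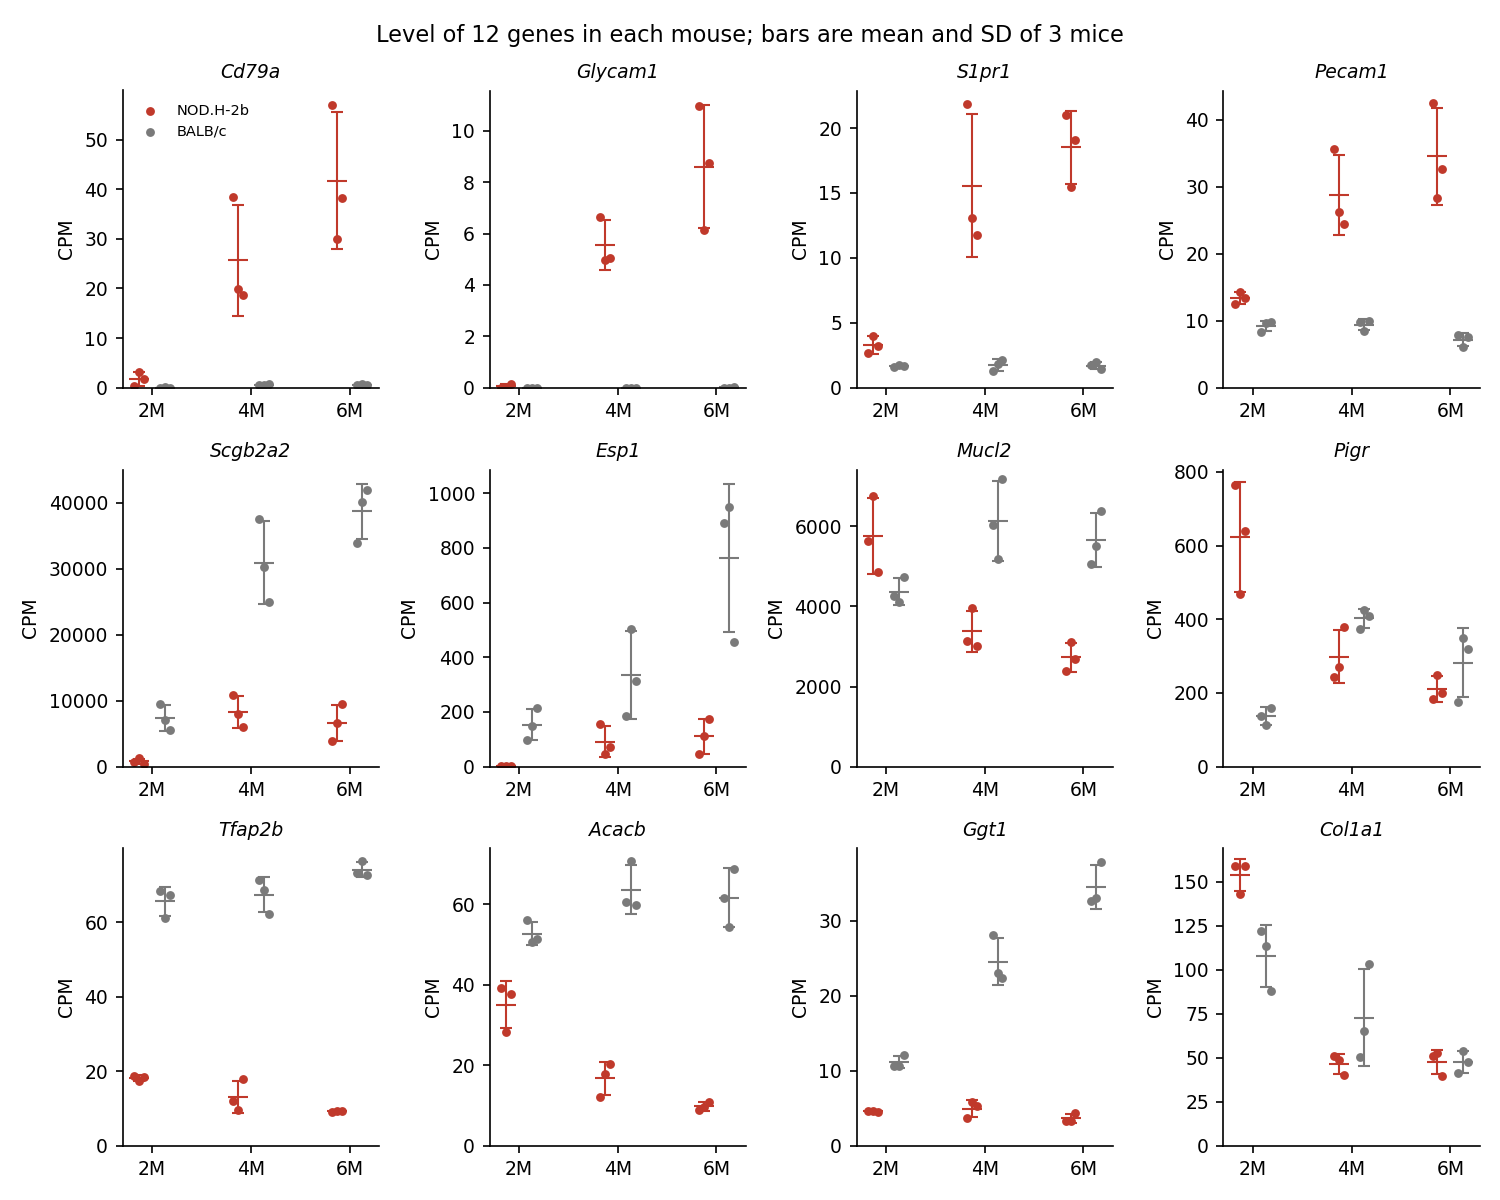
Level in CPM (vertical axes, from 0) of 12 genes at 2M, 4M and 6M (horizontal axes) in NOD.H-2b and BALB/c, with a point for each mouse and bars for the mean and SD of 3 mice. Cd79a, Glycam1, S1pr1 and Pecam1 rose in NOD.H-2b and lay low in BALB/c, Pigr, Acacb and Mucl2 fell in NOD.H-2b, Ggt1 rose in BALB/c, and Scgb2a2 rose and Col1a1 fell in both.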

How the data were processed

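RNA of 18 LGs (3 per strain and age) was depleted of ribosomal RNA and sequenced as paired ends. Per the labels and the study's methods, the authors trimmed reads with cutadapt, checked them with FastQC, aligned them with STAR to GRCm38 and counted reads per gene with HTSeq, and they deposited raw counts per gene, the values used here. Versions of these tools, the gene models, whether strand was used in counting and how multi-mapping reads were handled are not given in the sources used here. Of the 54232 gene identifiers 54165 were named from GENCODE M21, and 21452 had no count in any mouse. Totals ran from 49480781 to 103936830 counts over all mice, and replicates of a group differed by more than sampling noise.

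Groups came from the labels. Genes passing filterByExpr in the 6 mice were normalised by TMM and tested with edgeR 4.0.16 (quasi-likelihood, robust, R 4.3.3, limma 3.58.1), with DESeq2 1.42.0 as an alternative. BALB/c was fitted alone, and the difference of the age changes was fitted on 12 mice. A test on simulated counts for NOD.H-2b 6M against 2M (18008 genes, 200 changed) recovered 79% of 3-fold and 89% of 8-fold changes, with 4% of calls wrong. Single shares were compared by an exact permutation test. Shown per mouse are CPM after TMM over all 18 mice. Errors of fold changes are standard errors from the F statistic. Promoters came from the RefSeq table of GRCm38.p6, in which 1066 of the 1965 genes that rose and 171 of the 279 that fell were found.

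Named genes were the 6 each way with the largest change at an average log2 CPM of at least 3 (antibody and T cell receptor segments left out), the 3 each way with the smallest p, the called member each way with the largest change of each of 44 lists (average log2 CPM of at least 1), the 4 gained and the 4 lost genes with the highest levels, the 4 each way with the smallest p among those called in the strain difference, genes the study names for its cell types and pathways, and the 3 variable segments each way with the largest change. A few genes that the rule or the lists hold are not reported here. The comparison, the lists and this rule were chosen with earlier results of these data known. Figures were drawn with matplotlib 3.10.9.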

Additional observations from a re-analysis of the deposited data

Results flagged for a closer look

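For 30 of the 84 named genes the change from 2M to 6M differed between NOD.H-2b and BALB/c by the test of the difference itself (edgeR's quasi-likelihood interaction term on 12 mice, FDR from 1.89e-05 to 0.0492 after Benjamini-Hochberg adjustment over 18623 genes), a call on FDR alone that 7.37% of all genes met with a higher and 10.9% with a lower change in NOD.H-2b. Genes of the rule that used this same contrast (S1pr1, Snord17, Gprc5b, Ssh2, Ggt1, Tfap2b, Ggh and Acacb) are among them by construction. Most other named genes were chosen for their change in the same NOD.H-2b mice, which this test uses again. That choice can raise the number, so 30 of 84 cannot be read against the shares of all genes. The values below are the change in NOD.H-2b minus the change in BALB/c on the log2 scale.

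The difference was above 0 for 12 genes. Among genes of lymphocytes, vessels and antigen presentation it was 3.39 for Il21r, 2.44 for S1pr1, 2.21 for Ciita, 1.70 for Pecam1, 1.57 for Cd74 and 1.5 for Tgfb1. It was 4.39 for the pheromone Esp1, 4.58 for Tspan10, 1.57 for Gprc5b, 1.54 for the sterol carrier Stard4, 1.52 for Snord17 and 1.48 for Ssh2.

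The difference was below 0 for 18 genes. Among genes of epithelium and secretion it was -3.02 for Slpi, -2.64 for Pigr, -1.65 for Prom1, -1.48 for Mucl2, -1.18 for Tfap2b, -0.70 for Car6 and -0.42 for Ltf. Slpi rose in NOD.H-2b as well, by less than in BALB/c. Among metabolic and stress genes it was -2.10 for Acacb, -2.0 for Ggt1, -1.57 for Trib3, -1.43 for Arg2, -1.26 for Pmvk and -1.25 for Ggh. The others were the antibody segment Ighv3-5 with -4.12, Gm37819 with -3.88, Pllp with -1.55, Fam171a2 with -1.19 and Cald1 with -0.75. Cald1 fell in both strains, by more in NOD.H-2b. In 16 of the 30 genes the fitted changes of the 2 strains had opposite signs, some of them close to 0 in BALB/c, as -0.0001 for Tgfb1 and 0.02 for Pllp. Ighv3-5, Gm37819, Il21r and Tspan10 had too few counts to be tested in BALB/c alone and could not be among the 16. Their differences rest on those few counts, at most 4 in any BALB/c mouse for Tspan10.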

How the results depend on the processing

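In NOD.H-2b 1965 genes rose and 279 fell, and leaving out single mice gave 1396 to 2230 and 197 to 334, with 1162 and 126 called in every such fit. Against a 2-fold change (glmTreat) 337 rose and 20 fell, 180 fell with at least 10 counts in every sample, and 176 fell without replicate 1 of both ages, a setting chosen after seeing the data. In BALB/c 441 rose and 44 fell without a filter, 135 rose with at least 10 counts, 33 fell with DESeq2, 82 rose and 1 fell with glmTreat, and single mice left out gave 167 to 405 and 8 to 68 (the highest without BALB/c 6M replicate 3). The strain difference gave 6 higher and 5 lower genes with glmTreat, and 426 (without NOD.H-2b 6M replicate 1) to 864 higher without single mice. Gained genes numbered 318 without a filter, 202 with DESeq2, 41 with glmTreat, 114 and 130 in fits of 9 and 18 mice, 313 with a floor of 10 counts, 75 to 241 without single mice and 0 with at least 10 counts, by construction. Lost genes numbered 31, 15 and 2 in the first 3 of these settings, 17 in the fit of 18 mice, 31 with the floor of 10, 8 without replicate 1 of both ages, 4 to 15 without single mice and 0 with at least 10 counts. Dmbt1, not called, turned to 0.00327 with at least 10 counts, and single mice left out gave -0.22 to 0.12 on the log2 scale. With the replicate number as a block 1368 rose and 216 fell (1350 and 206 shared with the fit without it). Deviations of same-numbered mice correlated at -0.27, -0.24 and 0.03, and no mouse matched its own number best, so the numbers were not taken as pairs. Of 72 called named genes 21 kept their call under every setting. Depth limits genes of a few counts, and 3 mice per age limit the rest.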

Other observations

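Of 13 immediate early genes 1 rose in NOD.H-2b (median log2 fold change 0.16). Egr3, a transcription factor induced within minutes by many signals, went from 0.71, 1.03 and 0.506 CPM at 2M to 6.07, 3.21 and 4.81 CPM at 6M (2.63 ± 0.31 SE, edgeR quasi-likelihood FDR = 0.00103). Fos, of the same class, stood at 2.87, 2.94 and 3.48 CPM and 5.07, 3.09 and 2.77 CPM with ages that overlapped (0.22 ± 0.23, FDR = 0.472), while BALB/c had 0.857, 0.661 and 0.841 CPM at 2M and 3.27, 26.3 and 38.1 CPM at 6M. Of 16 clock genes 2 fell (median -0.06). Npas2, a partner of the clock activator, went from 1.62, 1.05 and 0.759 CPM at 2M to 1.81, 2.11 and 2.86 CPM at 4M and 0.366, 0.302 and 0.582 CPM at 6M (-1.47 ± 0.36, FDR = 0.0122), and the repressor Nr1d1 from 58.2, 54.9 and 66.2 CPM to 29.1, 29.5 and 28.4 CPM (-1.06 ± 0.08, FDR = 0.000287). Npas2 was highest at 4M, and Nr1d1 overlaps Thra on the other strand and was under a 2-fold change without NOD.H-2b 2M replicate 3. The hour of dissection is not given in the sources used here.

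Of 5 mast cell genes tested none was called in NOD.H-2b (median 0.23), whereas 4 of 5 rose in BALB/c (median 1.53). Mcpt4, a mast cell protease, stood at 0.924, 0.785 and 0.569 CPM and 1.36, 1.24 and 1.31 CPM in NOD.H-2b and at 0.952, 1 and 0.543 CPM and 2.63, 4.24 and 4.22 CPM in BALB/c, and the change differed between the strains by -1.40 (FDR = 0.0226). Counts of mitochondrial genes made up 1.87 ± 0.134% of all counts at 2M and 2.50 ± 0.0699% at 6M (SD, n = 3 each, two-sided exact permutation test, p = 0.1, the smallest possible). In BALB/c the share was 1.55% to 1.63% at 2M and 2.02% to 2.41% at 6M. The share is of raw counts, before the normalisation that CPM includes, and it includes mitochondrial ribosomal RNA. In CPM the mitochondrial genes of the respiratory chain summed in NOD.H-2b to 5661, 4864 and 5353 at 2M. At 6M the sum was 5102, 5845 and 5712 CPM, so the ages overlapped. Of 7 mitochondrial genes of the respiratory chain tested none was called and 2 were higher by FDR alone (median log2 fold change 0.08). The highest log2 fold change among mitochondrial genes was that of mt-Rnr1, a ribosomal RNA. In NOD.H-2b mt-Rnr1 stood at 2788, 2312 and 2681 CPM and 3265, 3887 and 4772 CPM (0.60 ± 0.16, FDR = 0.0163). In BALB/c it stood at 3202, 3170 and 3200 CPM and 4612, 6029 and 6685 CPM (0.87, FDR = 0.02), with an FDR of 0.383 for the difference between the strains. Of 26 cell cycle genes 1 rose (median 0.16).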
